A study of Homo sapiens with 12 samples.

Results

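Aminoacyl-tRNA synthetases and genes of the amino acid response that the transcription factor ATF4 drives were examined in lymphoma cells after knockdown of BCL6. A list of 45 genes was used: cytoplasmic tRNA synthetases, stress regulators, enzymes of amino acid and folate metabolism, amino acid transporters and other genes induced by ATF4. A gene was represented by the probe set, among those named with exactly 1 symbol, that had the highest mean over all arrays. This gave 43 measured genes of 19775 on the array, of which 42 lay among the 9888 brighter genes that were tested. MARS1 and QARS1 were not included, because their probe sets also carry a microRNA symbol, and ATF3 was measured but was too dim to be tested.

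OCI-Ly7 and Pfeiffer are established lines of diffuse large B cell lymphoma of the germinal centre type, grown in IMDM with fetal bovine serum. Each was transiently transfected with an siRNA against BCL6 or a non-target control siRNA, and total RNA was taken after 48 h and hybridised to Affymetrix U133 Plus 2.0 arrays. Each of the 4 groups had 3 arrays. The titles of the Pfeiffer controls read NTshRNA, whereas their descriptions name control siRNA oligos. The labels name no separate cultures behind the arrays of a group, so p-values cover the spread between these arrays, which may be technical.

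A tRNA synthetase joins an amino acid to its tRNA, the step that supplies the ribosome. When amino acids run short, uncharged tRNA activates the kinase GCN2, which phosphorylates the initiation factor eIF2. Most translation then slows while the ATF4 mRNA is translated more. ATF4 pairs with C/EBP proteins at C/EBP-ATF response elements and induces synthetases, transporters and enzymes of serine, glycine and asparagine synthesis, together with the pro-apoptotic factor DDIT3. Other kinases of eIF2, among them PERK in the unfolded protein response, feed into the same programme, and ATF4 has been linked to the survival of MYC-driven lymphoma cells. BCL6 is the transcriptional repressor that defines germinal centre B cells. ATF4 is controlled largely at translation, and neither protein nor phosphorylation was measured on these arrays.

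Promoter sequences of the measured genes were searched for the response element, because it is the sequence at which ATF4 pairs with C/EBP proteins. RefSeq windows (GRCh38.p14) from 250 bases before to 50 after the gene start were available for 34 of the measured genes. The letters TGATGNAA, on either strand, were found in 13 of these 34 genes (38.2%) and in 4.46% of all 27305 genes with a window. Among the genes that rose in Pfeiffer after BCL6 knockdown, described further on, 9 of 19 with a window held a match, and among those that were not called 3 of 12 did. Neither RARS1 nor ALDH18A1, the 2 genes that fell, held one. The genes were listed as known or likely ATF4 targets, so the share describes the list, and a match is not evidence of binding. Stretches around the match are given for 5 genes that rose in Pfeiffer and, for contrast, for CEBPG, which did not pass the test. Capitals mark the match.
CHAC1, chr15:40953251-40953280, minus strand: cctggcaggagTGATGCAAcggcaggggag
ASNS, chr7:97872458-97872487, minus strand: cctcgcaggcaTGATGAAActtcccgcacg
AARS1, chr16:70289675-70289704, plus strand: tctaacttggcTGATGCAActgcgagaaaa
IARS1, chr9:92293692-92293721, plus strand: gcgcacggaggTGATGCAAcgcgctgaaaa
GARS1, chr7:30594834-30594863, minus strand: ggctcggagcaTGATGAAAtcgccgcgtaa
CEBPG, chr19:33374060-33374089, plus strand: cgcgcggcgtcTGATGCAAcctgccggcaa
The match lay 209 bases before the gene start in CHAC1, 68 in ASNS, 187 in AARS1, 13 in IARS1, 33 in GARS1 and 42 in CEBPG. CHAC1, AARS1, IARS1 and CEBPG shared the core with C at the open position, and ASNS and GARS1 had A there.

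The same windows were searched for TTCCTAGAA, the core of the BCL6 binding motif, since BCL6 was the factor depleted. It was found in 2 of the 34 genes (5.88%), CARS1 and TARS1, against 0.472% of all genes. Both genes rose in Pfeiffer, as did 19 of the 34 genes with a window. A count of 2 genes is a description only, and a match is not evidence of binding. In CARS1 the match began 8 bases after the gene start, next to the response element that its window also holds in lower case at the right end. In TARS1 it lay 127 bases before the start. Capitals mark the match to the BCL6 motif.
CARS1, chr11:3057397-3057425, plus strand: ctacagacacTTCCTAGAAtctgatgcaa
TARS1, chr5:33440828-33440856, plus strand: gcgacctgatTTCCTAGAAgggctctgtc
BCL6 binding was not measured here.

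Levels are given as log2(signal + 16), a change is the siRNA mean minus the control mean on that scale, and a fold is that change turned back, which understates the change of dim genes. Changes were tested with limma, and a gene was called where the p-value adjusted over all 9888 genes was below 0.05. Probe sets differ in how strongly they bind, so the level of one gene was not set against that of another. BCL6 itself read 13.50, 13.57 and 13.59 on the OCI-Ly7 control arrays and 13.13, 13.10 and 13.15 after BCL6 siRNA, a change of -0.42 (SE 0.08, adjusted p = 0.00731). In Pfeiffer it read 13.86, 13.92 and 14.01 in controls and 13.11, 13.04 and 12.75 after siRNA, a change of -0.96 (SE 0.08, adjusted p = 5.31e-07). The fall was larger in Pfeiffer by 0.54 (SE 0.11, adjusted p = 0.00496). Array medians lay between 71.3 and 85 on the linear scale, and arrays of a group correlated at 0.974 to 0.977. Pfeiffer BCL6 siRNA array 3 stood apart in the log2 ratio of 3' to 5' probe sets. For GAPDH it was -0.03 there and -0.13 to -0.09 on the remaining Pfeiffer arrays, and for ACTB 0.39 there and 0.28 to 0.31 elsewhere.

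In Pfeiffer, BCL6 knockdown was accompanied by higher levels across the list. Of the 42 genes tested 22 rose and 2 fell, or 57.1%, where 16.2% of all tested genes were called, 7.90% higher and 8.31% lower. The list was chosen with earlier results of these data known, so its shares, here and below, are a description only. The largest rises were those of the stress gene CHAC1 (1.97-fold), the cystine transporter SLC7A11 (1.61-fold) and the tryptophanyl-tRNA synthetase WARS1 (1.61-fold). The other 19 rises were under 1.5-fold. The median change over the 42 genes was 0.28 against 0.00 over all genes, and 38 of the 42 values lay above 0. For 28 of the 42 genes every siRNA array lay above every control array and for 2 below, and 33.0% of all genes had no overlap in either direction.

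In OCI-Ly7 few genes were called. Only SLC7A5, the large neutral amino acid transporter, rose, and no gene fell, so 1 of 42 was called where 2.68% of all genes were, 1.69% higher and 0.991% lower. The median change was 0.01, the same as over all genes, and 24 of 42 values were above 0. At an unadjusted p below 0.05, 8 of the 42 genes passed, beside 15.5% of all genes. Across the 42 genes the changes in the lines correlated at r = -0.18, beside 0.04 over all genes tested. Both values describe genes that are not independent. The 42 include INHBE, which was dim in OCI-Ly7 and had the lowest change there, -1.16, against 0.79 in Pfeiffer. A value without INHBE was not computed.

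**Figure D1:**
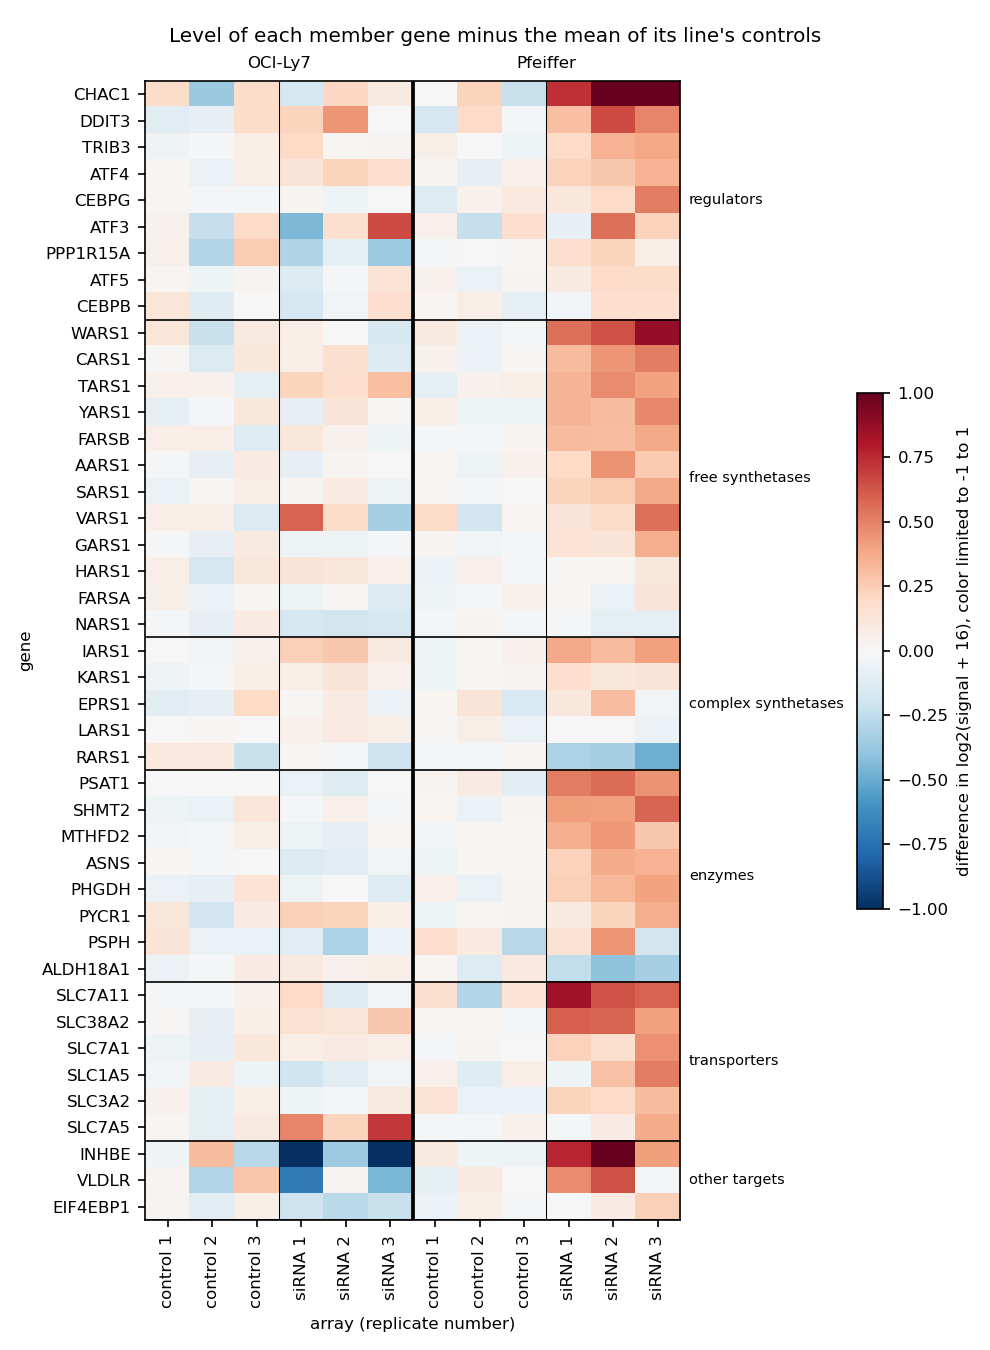
Level of each gene on each of the 12 arrays, as the log2 difference from the mean of that line's control arrays, with genes ordered by role, arrays by line and treatment, and colour limited to -1 to 1. On the Pfeiffer siRNA arrays most rows lie above the control mean, while the OCI-Ly7 siRNA arrays show no common shift.

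The shift in Pfeiffer was present on each siRNA array. Measured against the mean of the controls, the median over the 42 genes was 0.21, 0.30 and 0.37 on the Pfeiffer siRNA arrays, with 35, 37 and 35 genes above the control mean. In OCI-Ly7 the same medians were 0.01, 0.03 and -0.00. The highest Pfeiffer value belonged to array 3, the one that stood apart in its 3' to 5' ratios. Without that array 19 genes rose and 2 fell, where 16.1% of all genes were called. B cell markers also moved in Pfeiffer: 5 of the 7 measured fell, among them CD37 (-1.13) and CD22 (-0.97), where 8.31% of all genes fell. The summed signal of the 7 went from between 55600 and 56600 to between 34700 and 39300. In OCI-Ly7, 2 of the 7 rose, where 1.69% of all genes did. In bulk RNA of a cell line a change in all cells and a change in some of them cannot be told apart. All 6 T cell and all 6 myeloid markers stayed below 7.91, the lowest level tested, in every group. Of the 6 stromal and epithelial markers, 2 reached that level in Pfeiffer, COL1A1 and the epithelial marker EPCAM. EPCAM read 14.06 in Pfeiffer controls and 13.87 after siRNA. The other epithelial marker, KRT8, averaged 7.78 and 7.87 in these groups, and COL1A2, COL3A1 and DCN also averaged below 7.91. The part of marker changes, of RNA quality and of the size of the BCL6 fall in the result was not tested.

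**Figure D2:**
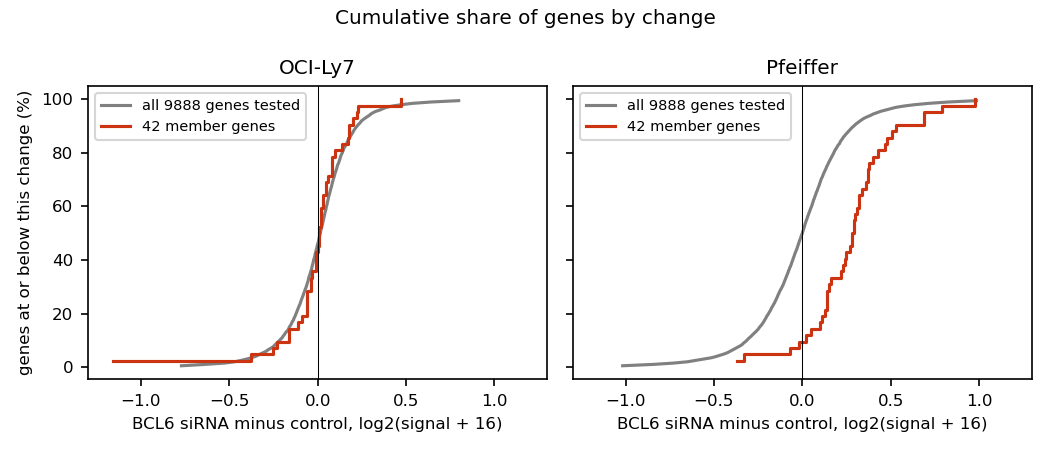
Cumulative share of genes against change (siRNA minus control, log2) in each line, for the 42 tested genes of the list and, without its extremes, for all 9888 tested genes. In Pfeiffer the curve of the list lies to the right, with a median of 0.28 against 0.00, and in OCI-Ly7 both medians are 0.01.

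Among the regulators, 4 of 8 tested rose in Pfeiffer and none fell, with a median change of 0.27. CHAC1, an enzyme counted here with the regulators, degrades glutathione and is induced by ATF4 and DDIT3 under stress. It read 7.62, 7.84 and 7.40 on the Pfeiffer control arrays and 8.35, 8.66 and 8.79 after siRNA. The groups did not overlap, and the change was 0.98 (SE 0.19, adjusted p = 0.00245). All 3 control arrays read below 7.91, the lowest level tested, which limits the size of this change. In OCI-Ly7, CHAC1 read 8.80, 8.25 and 8.80 in controls and 8.45, 8.83 and 8.71 after siRNA, overlapping groups with a change of 0.05. ATF4, the factor at the head of the response, went from 13.67, 13.56 and 13.69 to 13.87, 13.91 and 13.99 in Pfeiffer. That rise of 0.28 (SE 0.05, adjusted p = 0.00205) separated the groups. ATF4 read 14.43, 14.34 and 14.47 in OCI-Ly7 controls and 14.54, 14.63 and 14.58 after siRNA, which also separated the arrays but did not pass the test (0.17, adjusted p = 0.113).

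DDIT3, also called CHOP, a factor that promotes cell death under lasting stress, read 8.50, 8.86 and 8.66 in Pfeiffer controls and 8.97, 9.32 and 9.16 after siRNA. The change was 0.48 (SE 0.14, adjusted p = 0.0331). OCI-Ly7 values were 9.09, 9.12 and 9.38 against 9.42, 9.64 and 9.20, which overlapped (0.22, adjusted p = 0.509). TRIB3, a pseudokinase that feeds back on ATF4, rose in Pfeiffer from 11.27, 11.21 and 11.16 to 11.40, 11.56 and 11.60, by 0.31 (SE 0.07, adjusted p = 0.00678). In OCI-Ly7 it read 11.65, 11.69 and 11.77 and then 11.90, 11.72 and 11.73, again overlapping. ATF5, CEBPB, CEBPG and PPP1R15A, the last of which encodes the phosphatase subunit that restores eIF2, had Pfeiffer changes of 0.10 to 0.27 and were not called. For 3 of these 4, ATF5, CEBPG and PPP1R15A, the Pfeiffer siRNA arrays nevertheless lay above all controls. PPP1R15A was dim in Pfeiffer, with means of 7.70 and 7.85, and was tested because of its OCI-Ly7 level. ATF3, a stress-induced repressor, read 7.20, 6.92 and 7.32 in Pfeiffer controls and 7.07, 7.70 and 7.38 after siRNA. Its OCI-Ly7 values were 6.96, 6.69 and 7.11, then 6.47, 7.08 and 7.57, and in a fit of all genes it was not called (adjusted p = 0.955 in OCI-Ly7 and 0.791 in Pfeiffer).

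The DDIT3 call was lost without Pfeiffer control 1 (adjusted p = 0.128), control 3 (0.081), siRNA 2 (0.123) or siRNA 3 (0.0646), and in a fit without the filter on dim genes (0.0613). TRIB3 was called from its brighter probe set. Its next brightest gave -0.01 in Pfeiffer (adjusted p = 0.972), and averaging its probe sets gave 0.15 (adjusted p = 0.348).

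Of the 8 enzymes of amino acid and folate metabolism 5 rose in Pfeiffer and 1 fell, with a median change of 0.32. The 5 act in serine, glycine, asparagine and one-carbon synthesis, and the 1 that fell acts in proline synthesis. PSAT1, the aminotransferase of serine synthesis, read 12.19, 12.24 and 12.05 in Pfeiffer controls and 12.67, 12.72 and 12.61 after siRNA. The groups were clearly apart (0.51, SE 0.06, adjusted p = 2.53e-05). In OCI-Ly7 it stayed near one level, 12.49 on each of the 3 control arrays and 12.42, 12.37 and 12.49 after siRNA. PHGDH, which starts that pathway, read 12.15, 12.03 and 12.13 and then 12.34, 12.43 and 12.50 in Pfeiffer, a rise of 0.32 (SE 0.07, adjusted p = 0.00419). The OCI-Ly7 arrays overlapped, at 12.47, 12.45 and 12.67 against 12.48, 12.53 and 12.40. PSPH, the last enzyme of the pathway, was not called in Pfeiffer (0.14, adjusted p = 0.562), and its arrays ranged from 10.55 to 11.00 in controls and from 10.65 to 11.27 after siRNA.

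SHMT2, which turns serine into glycine in mitochondria, rose in Pfeiffer from 13.06, 12.98 and 13.07 to 13.46, 13.45 and 13.62 (0.47, SE 0.06, adjusted p = 8.12e-05). OCI-Ly7 read 13.32, 13.30 and 13.49 and then 13.36, 13.42 and 13.36, which overlapped. MTHFD2, the mitochondrial folate enzyme that follows it, rose from 13.68, 13.73 and 13.72 to 14.07, 14.14 and 13.98 (0.36, SE 0.05, adjusted p = 0.000204). In OCI-Ly7 MTHFD2 read 13.92, 13.93 and 14.01 against 13.90, 13.87 and 13.97. ASNS, asparagine synthetase and a classical ATF4 target, rose in Pfeiffer from 12.32, 12.39 and 12.39 to 12.60, 12.74 and 12.72 (0.32, SE 0.05, adjusted p = 0.000723). In OCI-Ly7 the ASNS siRNA arrays lay below the controls, 12.39, 12.42 and 12.50 against 12.55, 12.51 and 12.53, without passing the test (-0.09, adjusted p = 0.434). The ASNS rise rests on 1 probe set, since its other one read 4.53 to 4.75 on average in the groups.

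Genes of proline synthesis gave other values. ALDH18A1, which makes the proline precursor from glutamate, fell in Pfeiffer from 11.52, 11.37 and 11.60 to 11.25, 11.10 and 11.17. The change was -0.33 (SE 0.07, adjusted p = 0.00461), and siRNA arrays lay below every control. In OCI-Ly7 it read 11.06, 11.10 and 11.20 and then 11.21, 11.16 and 11.19. PYCR1, which completes proline synthesis, had a Pfeiffer change of 0.23 that missed the threshold (adjusted p = 0.12), although its arrays did not overlap.

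**Figure D3:**
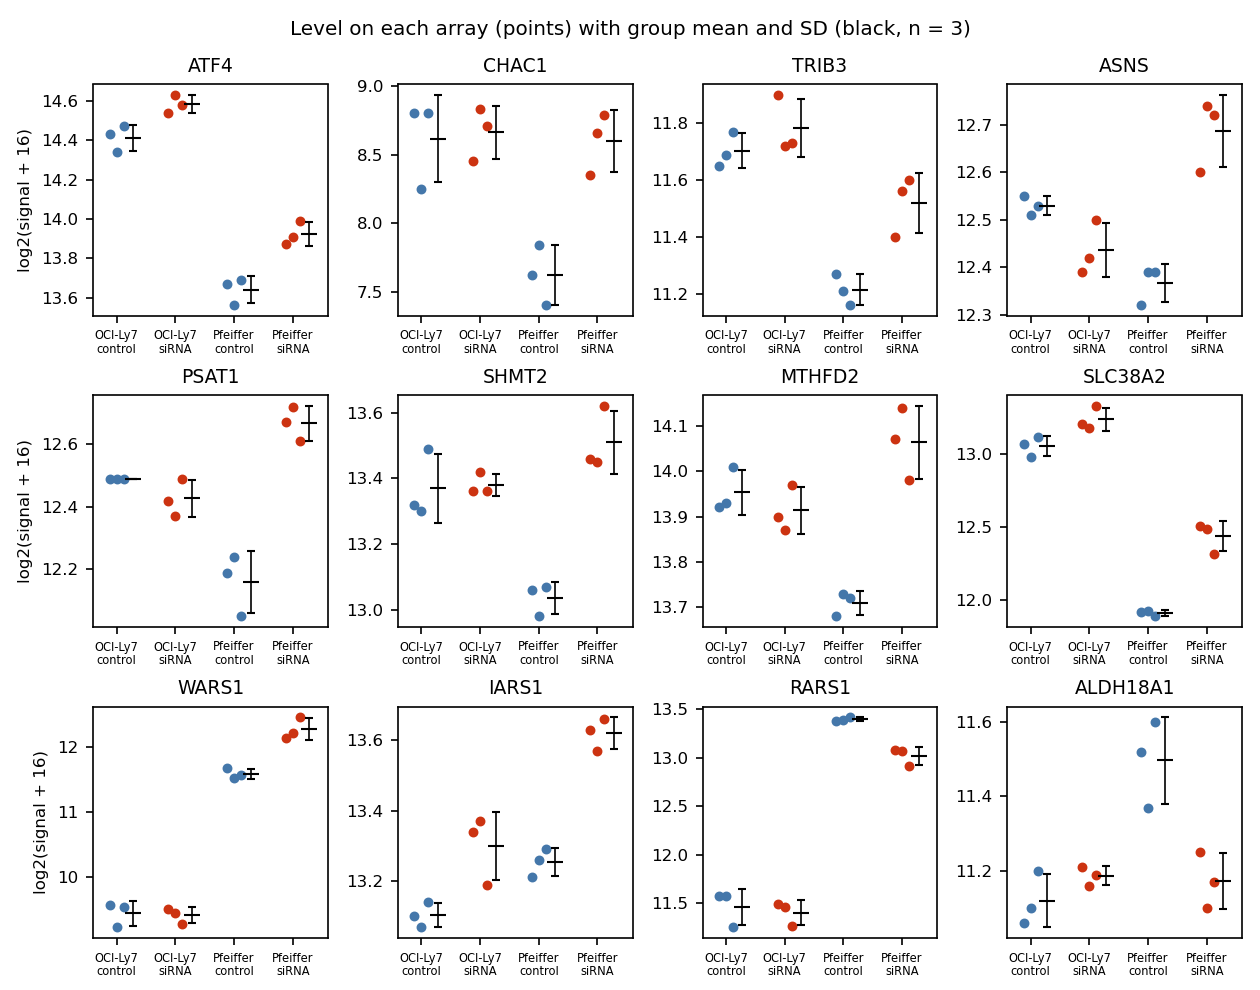
Level, log2(signal + 16), on each array for selected genes of the list, with each point 1 array and black bars the mean and SD of 3. In Pfeiffer the siRNA and control points of the genes that were called do not overlap.

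Of the 6 amino acid transporters 4 rose in Pfeiffer, with a median change of 0.27, and SLC7A5 rose in OCI-Ly7. SLC38A2, a sodium-coupled carrier of small neutral amino acids that is induced by amino acid shortage, went from 11.92, 11.93 and 11.89 to 12.51, 12.49 and 12.32 in Pfeiffer. This rise of 0.53 had an SE of 0.06 (adjusted p = 2.6e-05). In OCI-Ly7 its siRNA arrays were also above all controls, 13.21, 13.18 and 13.33 against 13.07, 12.98 and 13.12, but the change of 0.18 did not pass (adjusted p = 0.146). SLC7A11, the cystine-glutamate exchanger, read 8.68, 8.23 and 8.66 in Pfeiffer controls and 9.36, 9.15 and 9.11 after siRNA (0.69, SE 0.14, adjusted p = 0.00326). OCI-Ly7 values overlapped, at 9.01, 9.01 and 9.07 against 9.22, 8.90 and 9.0. SLC7A1, the cationic amino acid carrier, rose from 12.05, 12.10 and 12.07 to 12.30, 12.23 and 12.53 (0.28, SE 0.07, adjusted p = 0.0139), and in OCI-Ly7 it read 12.12, 12.09 and 12.28 against 12.24, 12.25 and 12.24.

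SLC3A2 encodes the heavy chain that SLC7A5 and SLC7A11 need at the membrane. In Pfeiffer it read 11.16, 10.95 and 10.96 in controls and 11.24, 11.21 and 11.34 after siRNA (0.24, SE 0.08, adjusted p = 0.04). Its OCI-Ly7 values were 10.44, 10.30 and 10.46, then 10.36, 10.39 and 10.49. SLC7A5 itself rose in OCI-Ly7, from 10.50, 10.38 and 10.57 to 10.97, 10.70 and 11.19 (0.47, SE 0.11, adjusted p = 0.0341). In Pfeiffer SLC7A5 read 12.48, 12.47 and 12.53 and then 12.47, 12.57 and 12.86, overlapping groups with a change of 0.14 (adjusted p = 0.462). The glutamine carrier SLC1A5 had a Pfeiffer change of 0.25 (adjusted p = 0.159) and was not called.

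Single arrays decided several transporter calls. SLC3A2 was lost without any 1 of Pfeiffer control 2 (adjusted p = 0.136), control 3 (0.137), siRNA 1 (0.0719), siRNA 2 (0.0551) or siRNA 3 (0.106), and without OCI-Ly7 control 1 (0.0511) or siRNA 2 (0.05, which did not fall below the threshold). SLC7A5 in OCI-Ly7 was lost without control 1 (0.0857), control 2 (0.116), control 3 (0.0603), siRNA 1 (0.111), siRNA 3 (0.135) or Pfeiffer control 1 (0.0524). On the next brightest probe set SLC7A1 gave 0.14 (adjusted p = 0.542) and SLC7A11 0.34 (adjusted p = 0.273).

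Among the 17 synthetases tested, 9 rose and 1 fell in Pfeiffer and 0 were called in OCI-Ly7, where 3 of the 17 had an unadjusted p below 0.05. Of the 11 that are commonly listed as ATF4 targets, 8 rose and 0 fell (median 0.30), and of the other 6, 1 rose and 1 fell (median 0.10). No test of that difference was run. The members and lists were chosen with earlier results of these data known, so the split is a description only. Of the 12 that work outside the multi-synthetase complex, the assembly that holds several synthetases together, 8 rose and none fell.

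WARS1, for tryptophan, showed the largest synthetase change. It read 11.68, 11.53 and 11.57 in Pfeiffer controls and 12.14, 12.23 and 12.47 after siRNA (0.69, SE 0.10, adjusted p = 0.00035). The OCI-Ly7 arrays gave 9.56, 9.22 and 9.53 against 9.51, 9.44 and 9.28, which overlapped. WARS1 is also induced by interferon. CARS1, for cysteine, rose in Pfeiffer from 12.60, 12.50 and 12.57 to 12.88, 13.00 and 13.07 (0.43, SE 0.08, adjusted p = 0.00179), and in OCI-Ly7 it read 12.54, 12.39 and 12.64 against 12.60, 12.69 and 12.39. TARS1, for threonine, went from 12.16, 12.30 and 12.32 to 12.60, 12.73 and 12.66 in Pfeiffer (0.40, SE 0.06, adjusted p = 0.000509). In OCI-Ly7 the TARS1 siRNA arrays were likewise above the controls, 11.74, 11.69 and 11.82 against 11.57, 11.56 and 11.42, with a change of 0.23 that missed the threshold (adjusted p = 0.074).

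YARS1, for tyrosine, rose in Pfeiffer from 12.36, 12.25 and 12.24 to 12.63, 12.61 and 12.77 (0.38, SE 0.07, adjusted p = 0.00162). Its OCI-Ly7 values overlapped, at 12.22, 12.29 and 12.42 against 12.23, 12.44 and 12.32. AARS1, for alanine, rose from 12.91, 12.84 and 12.93 to 13.09, 13.34 and 13.15 (0.30, SE 0.07, adjusted p = 0.00595), and in OCI-Ly7 it read 12.22, 12.16 and 12.32 against 12.16, 12.27 and 12.24. SARS1, for serine, rose from 12.25, 12.22 and 12.24 to 12.46, 12.49 and 12.62 (0.29, SE 0.06, adjusted p = 0.0032). The OCI-Ly7 arrays of SARS1 lay between 12.10 and 12.25 in both groups. GARS1, for glycine, went from 12.44, 12.38 and 12.40 to 12.55, 12.54 and 12.77 (0.22, SE 0.06, adjusted p = 0.0304), with OCI-Ly7 values between 12.53 and 12.70.

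Phenylalanyl-tRNA synthetase is built of FARSA and FARSB chains, and the values of the chains differed. FARSB read 11.46, 11.45 and 11.50 in Pfeiffer controls and 11.79, 11.78 and 11.85 after siRNA (0.34, SE 0.07, adjusted p = 0.00261). FARSA read 11.45, 11.48 and 11.53 and then 11.50, 11.42 and 11.62 (0.02, adjusted p = 0.862). The FARSB rise rests on 1 probe set, since its others read below 7.91 in both lines and give no check. In OCI-Ly7, FARSB arrays overlapped, between 10.70 and 10.94. HARS1, NARS1 and VARS1, for histidine, asparagine and valine, were not called in Pfeiffer, with changes of 0.05, -0.07 and 0.29.

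Within the complex, 1 synthetase rose and 1 fell. IARS1, for isoleucine, rose in Pfeiffer from 13.21, 13.26 and 13.29 to 13.63, 13.57 and 13.66 (0.37, SE 0.05, adjusted p = 0.000226). In OCI-Ly7 its siRNA arrays, 13.34, 13.37 and 13.19, were above the controls, 13.10, 13.07 and 13.14, and the change of 0.20 missed the threshold (adjusted p = 0.0611). RARS1, for arginine, fell in Pfeiffer from 13.38, 13.39 and 13.42 to 13.08, 13.07 and 12.91 (-0.37, SE 0.08, adjusted p = 0.00716). It overlapped in OCI-Ly7, at 11.57, 11.57 and 11.25 against 11.49, 11.46 and 11.26. EPRS1, KARS1 and LARS1 were not called, with Pfeiffer changes of 0.13, 0.14 and -0.02. AIMP1, a scaffold of the complex, had a change of 0.07 (adjusted p = 0.366).

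GARS1 was lost without Pfeiffer control 1 (adjusted p = 0.0547), control 2 (0.094), control 3 (0.0798) or siRNA 3 (0.098). On the next brightest probe set CARS1 gave 0.37 (adjusted p = 0.0536) and SARS1 gave 0.07 (adjusted p = 0.777). For TARS1 and YARS1 that probe set read below 7.91 in Pfeiffer and gives no check.

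**Figure D4:**
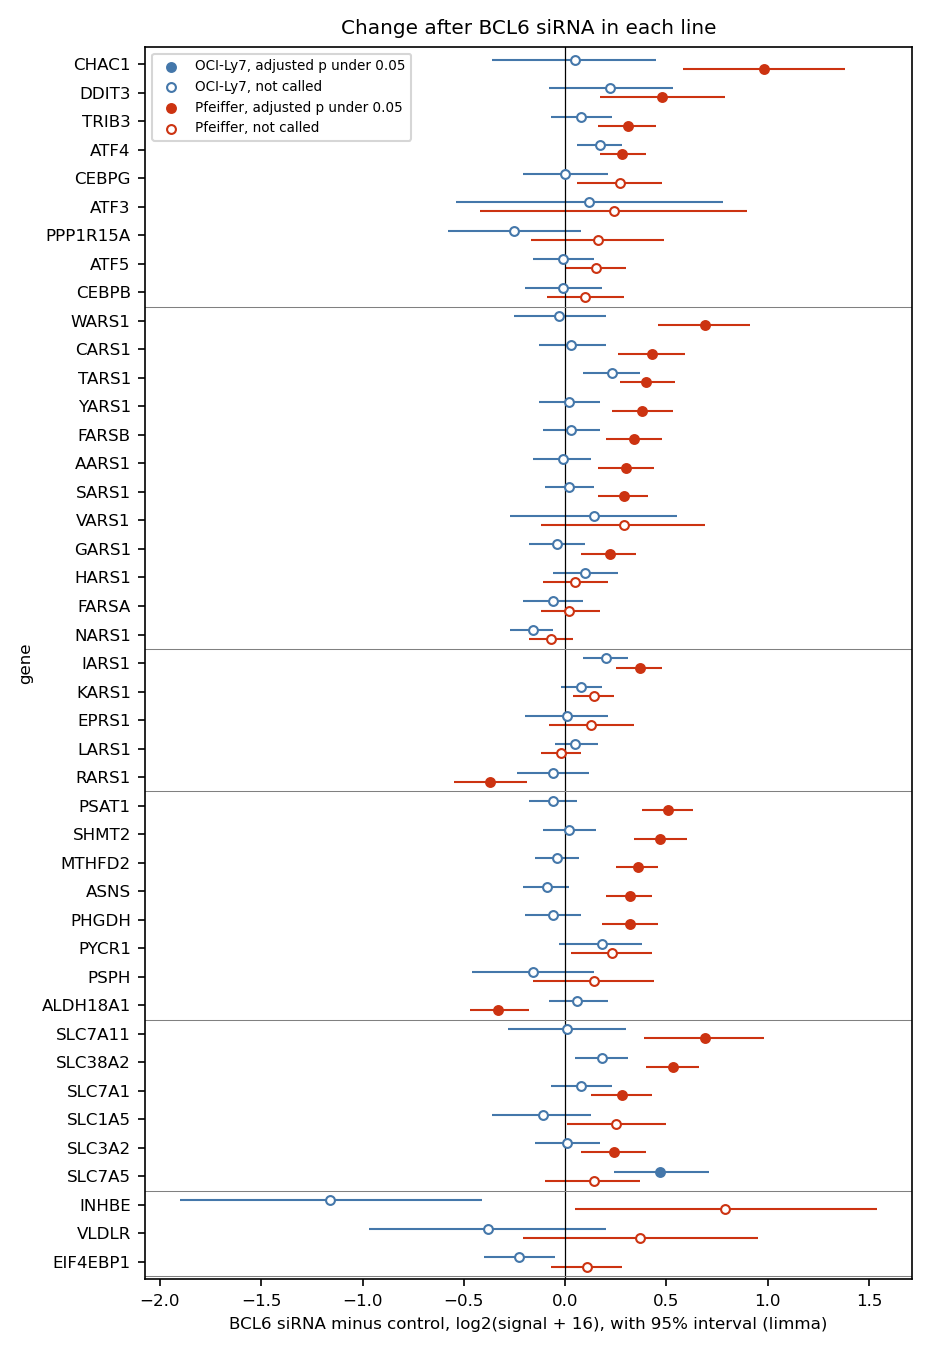
Change in each line (siRNA minus control, log2) for each gene with its 95% confidence interval from limma, ordered by role, with filled points marking genes called at an adjusted p below 0.05. Most Pfeiffer points lie to the right of 0, with RARS1 and ALDH18A1 to the left, and SLC7A5 is the 1 filled OCI-Ly7 point; ATF3 comes from a fit of all genes.

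INHBE, EIF4EBP1 and VLDLR, which are ATF4 targets outside these groups, were not called in either line. INHBE, a secreted inhibin chain, read 7.84, 7.71 and 7.70 in Pfeiffer controls and 8.51, 8.96 and 8.17 after siRNA (0.79, adjusted p = 0.143). In OCI-Ly7 it was dim, at 5.88, 6.24 and 5.64 and then 4.25, 5.56 and 4.48 (-1.16, adjusted p = 0.102). The arrays did not overlap in either line, in opposite directions. EIF4EBP1, a brake on translation initiation, changed by -0.23 in OCI-Ly7 and 0.11 in Pfeiffer.

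The lines were then compared directly, as the Pfeiffer change minus the OCI-Ly7 change. For 14 of the 42 genes, 13 with a more positive change in Pfeiffer, the difference was called, where 8.80% of all genes were, 3.74% with a more positive and 5.06% with a more negative change in Pfeiffer. They included 12 of the 22 genes that rose in Pfeiffer. The smallest p-values were those of 4 enzymes: the difference was 0.57 for PSAT1 (SE 0.08, adjusted p = 0.000481), 0.40 for MTHFD2 (SE 0.07, adjusted p = 0.00274), 0.41 for ASNS (SE 0.07, adjusted p = 0.00274) and 0.45 for SHMT2 (SE 0.09, adjusted p = 0.00383). WARS1 followed with 0.71 (SE 0.15, adjusted p = 0.00692), and CHAC1 differed by 0.93 (SE 0.27, adjusted p = 0.0423). INHBE differed by 1.95 (SE 0.49, adjusted p = 0.0226), a value that rests on OCI-Ly7 levels below the lowest level tested and ranged from 1.19 to 3.04 with the pseudocount. ALDH18A1 was the 1 gene with a more negative change in Pfeiffer (-0.39, SE 0.10, adjusted p = 0.0212). Several of these calls lay near the threshold. The CHAC1 difference was lost in 13 of 22 settings, AARS1 in 16 of 23, CARS1 in 14 of 23, YARS1 in 12 of 23, SLC7A11 in 12 of 22, ALDH18A1 in 7 of 23, INHBE in 5 of 22 and PHGDH in 4 of 23. For CHAC1 they included leaving out OCI-Ly7 control 1 or 3, OCI-Ly7 siRNA 1 or 3, Pfeiffer control 1 or 3 and Pfeiffer siRNA 2 or 3, with an adjusted p of up to 0.105. WARS1, PSAT1 and MTHFD2 kept theirs in every setting run.

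For the other 10 genes that rose in Pfeiffer a difference from OCI-Ly7 was not shown, and they included ATF4 (0.11, 95% interval -0.05 to 0.27), DDIT3 (0.26, -0.18 to 0.69) and TRIB3 (0.23, 0.02 to 0.43). TARS1 and IARS1, whose arrays did not overlap in either line, also belonged here, with differences of 0.17 each. SLC7A5 was called in OCI-Ly7 alone, but its difference of -0.34 did not pass (adjusted p = 0.207). The count of 14 fell to 9 without OCI-Ly7 siRNA 1, 8 without OCI-Ly7 siRNA 3, 9 without Pfeiffer control 2, 8 without Pfeiffer control 3 and 8 without Pfeiffer siRNA 2. The shares of all genes called in these fits were 6.55%, 6.83%, 7.67%, 6.58% and 7.83%, beside 8.8% in the main fit. WARS1, ASNS, PSAT1, SHMT2, MTHFD2 and SLC38A2 kept their call when each array was left out in turn.

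In the control arrays the lines already differed. Between Pfeiffer and OCI-Ly7 controls, 20 of 42 genes were higher in Pfeiffer and 16 lower, or 85.7%, where 79.6% of all genes were called, 42.5% higher and 37.1% lower, so this share was near the background. Of the 17 synthetases 12 were higher in Pfeiffer, with WARS1 (2.16), RARS1 (1.93) and HARS1 (1.79) the largest differences. SLC7A5 was higher by 2.01 (adjusted p = 1.63e-10). The regulators, with the enzyme CHAC1 counted among them, were mostly lower in Pfeiffer, 6 of 8. These included ATF4 (-0.77, adjusted p = 2.41e-09), DDIT3 (-0.52), TRIB3 (-0.49) and CHAC1 itself (-1.0, adjusted p = 0.000182). SLC38A2 was lower too (-1.15, adjusted p = 9.63e-11).

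Set beside the response, 12 of the 22 genes that rose in Pfeiffer read lower in Pfeiffer controls than in OCI-Ly7 controls, 6 read higher and 4 were not called. Both comparisons use the same Pfeiffer control arrays, so no relation between them was computed. CHAC1 after siRNA averaged 8.60 in Pfeiffer (SD 0.23, n = 3), beside 8.62 (SD 0.32, n = 3) in OCI-Ly7 controls. PHGDH averaged 12.42 beside 12.53, and SHMT2 13.51 beside 13.37. These examples do not stand for all 12 genes. SLC38A2 averaged 12.44 beside 13.06 and ATF4 13.93 beside 14.41, while PSAT1 averaged 12.66 beside 12.49. WARS1 showed another arrangement, with 11.59 in Pfeiffer controls and 9.44 in OCI-Ly7 controls.

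Neighbouring pathways were counted in the same fit. Of 23 further ATF4 response genes 4 rose and 2 fell in Pfeiffer, 26.1% beside the 16.2% of all genes. Their median change there was 0.08, with 16 values above 0 and 7 below, and the median difference between lines was 0.0. CTH, which makes cysteine from cystathionine, rose by 1.03 (SE 0.09, adjusted p = 2.73e-06), from 10.24, 10.14 and 9.99 to 11.20, 11.27 and 10.98, with no overlap. Its OCI-Ly7 change was -0.12 (adjusted p = 0.63), and the difference between lines was 1.14 (adjusted p = 6.74e-05). RRAGD and KLHL24 fell by 0.39 each (adjusted p = 0.000723 and 0.0117). In OCI-Ly7 1 of the 23 rose, the glutamine transporter SLC38A1 (0.24, adjusted p = 0.0118).

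The shares called in Pfeiffer in the lists that follow, 11.8% to 18.8%, were near the 16.2% of all genes. Of 14 genes for eIF2 kinases, eIF2 phosphatase and eIF2B, 1 rose and 1 fell in Pfeiffer and none was called in OCI-Ly7, where 2 had an unadjusted p below 0.05. The interferon-induced kinase EIF2AK2 fell (-0.30, adjusted p = 0.0246) and the phosphatase subunit PPP1R15B rose (0.22, adjusted p = 0.027). Of 15 mitochondrial synthetases 2 rose in Pfeiffer, EARS2 (0.49, adjusted p = 0.00905) and NARS2 (0.23, adjusted p = 0.0476), and none fell. Of 16 genes of the unfolded protein response outside ATF4, 4 rose in OCI-Ly7, where 2.68% of all genes were called, and 3 in Pfeiffer. The chaperone HSP90B1 rose in both, by 1.10 in OCI-Ly7 (adjusted p = 4.1e-07) and 0.72 in Pfeiffer (adjusted p = 3.26e-06), and so did the factor XBP1, by 0.50 and 0.44. HSPA5, the main chaperone of the endoplasmic reticulum, rose in OCI-Ly7 (0.34, adjusted p = 0.0224) and had a Pfeiffer change of -0.03, a difference of -0.37 (adjusted p = 0.0376). EDEM1, which helps to clear misfolded proteins, went the other way, with a rise in Pfeiffer (0.46, adjusted p = 0.00447), -0.07 in OCI-Ly7 and a difference of 0.53 (adjusted p = 0.0249). Of 17 genes of mTORC1 and leucine sensing none rose in Pfeiffer and 2 fell, SESN3 (-0.70, adjusted p = 0.0338) and TSC2 (-0.39, adjusted p = 0.0232).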

How the data were processed

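The deposited table holds log2 MAS5 signals, made with affy per the submitters' processing notes (versions not given in the sources used here). Transformed back, the mean of each array after trimming 2% at each end was 500.0, so the authors had scaled the arrays to one level. MAS5 subtracts mismatch signal, which makes dim probe sets noisy. Gene names came from GEO's platform annotation: 41091 carried 1 symbol, 1801 several, 11721 none and 62 were controls. A RefSeq table (GRCh38.p14) held 41037 of the gene identifiers and changed 0 symbols.

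Signals were turned into log2(signal + 16), with 1 probe set per gene. The upper 0.5 of 19775 genes, by the higher of the line means, was tested (9888 genes, lowest level 7.91). limma 3.58.1 in R 4.3.3 (lmFit, eBayes with trend) was fitted on 12 arrays with 4 group means, and p-values were adjusted by Benjamini-Hochberg at 0.05. The script was tested on simulated data. SE is the moderated standard error. The number of arrays limits the precision. No batch or scan date was used.

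Values on every array are given for genes called in a line or in the difference, and always for ATF4, ATF3, DDIT3, TRIB3, CHAC1 and ASNS. Of each pathway list, up to 4 genes with the lowest p are named. The members, lists and tests were chosen with earlier results of these data known. Same-numbered siRNA and control arrays did not deviate together (correlations -0.08 to 0.083), so the main fit has no block. Alternatives were quantile normalization, other pseudocounts, filters and probe set rules, no trend, array weights, each line alone, a replicate block and leaving out each array.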

Additional observations from a re-analysis of the deposited data

Results flagged for a closer look

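The change after BCL6 knockdown differed between the lines, in a test of the difference itself (limma, adjusted over 9888 genes), for 14 genes, given here as the Pfeiffer change minus the OCI-Ly7 change on the log2 scale with 3 arrays per group. Among synthetases it was 0.71 for WARS1, 0.39 for CARS1, 0.37 for YARS1 and 0.32 for AARS1. Among enzymes it was 0.57 for PSAT1, 0.45 for SHMT2, 0.41 for ASNS, 0.40 for MTHFD2, 0.38 for PHGDH and -0.39 for ALDH18A1. SLC7A11 differed by 0.68 and SLC38A2 by 0.35. CHAC1 differed by 0.93, and INHBE, called in neither line, by 1.95. The INHBE value rests on OCI-Ly7 levels below the lowest level tested (7.91) and ranged from 1.19 to 3.04 with the pseudocount.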

How the results depend on the processing

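Of 24 genes called in Pfeiffer, 12 kept their call in every setting run and 21 when each array was left out in turn. The Pfeiffer count lay between 20 and 25 except on the second brightest probe set of a gene, where it was 14, and at 21 to 25 with each array left out. The share of all genes called was 10.7% on the second brightest probe set and 6.53% to 27.4% in the other settings. With each array left out it was 11.3% to 16.3%. In OCI-Ly7 the count of 1 became 0 without the filter on dim genes, with the mean of all probe sets, with the second brightest probe set or with no trend, 2 with quantile normalization, 3 with a stricter filter on dim genes or array weights, and 0 to 2 with each array left out. In the settings named, in that order, 0.829%, 1.35%, 1.13%, 1.44%, 3.02%, 5.24% and 4.01% of all genes were called. With each array left out 1.02% to 3.41% were. The difference between lines fell from 14 to 8 without the filter, on the second brightest probe set or with no trend, and to 9 with the mean of all probe sets or after dropping probe sets able to bind related transcripts, and lay at 8 to 15 with each array left out. Here 3.43%, 5.1%, 6.93%, 5.4% and 7.35% of all genes were called, in the same order, beside 8.8% in the main fit. With each array left out the share was 6.55% to 10.0%. Between the control arrays of the lines the count of 36 stayed at 27 to 37, and at 33 to 37 with each array left out. Shares of all genes were 44.5% to 85.1%, and 76.8% to 80.5% with each array left out.

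Same-numbered arrays did not deviate together. The labels do not say whether they shared a culture or a batch, and these correlations cannot settle it. With the replicate block the counts were 1 in OCI-Ly7, 23 in Pfeiffer and 9 for the difference. The matching shares of all genes were 1.41%, 14.1% and 6.92%. A block could not be fitted between the control arrays, because it lies within a line, and fits of each line alone do not give the difference or the comparison of controls.

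Directions reversed on other probe sets for FARSB, TRIB3 and TARS1: FARSB in Pfeiffer was -0.11 with the mean and -0.22 on the second brightest, TRIB3 was -0.07 in OCI-Ly7 and -0.01 in Pfeiffer on the second brightest, and the FARSB difference between controls was -0.01 there. The TARS1 difference between controls was -0.42 with the mean and -1.59 on the second brightest. CHAC1 in OCI-Ly7, which was not called, ranged from -0.13 to 0.15 with each array left out. The other probe sets of FARSB, and that of TARS1, read below 7.91 in both lines, so these values are no check. The cause of the rest was not tested. Dim probe sets limit ATF3, INHBE and VLDLR. In Pfeiffer they also limit CHAC1, whose controls averaged 7.62, and PPP1R15A, whose controls averaged 7.70.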

Other observations

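Further probe sets of the genes that rose in Pfeiffer gave a partial repeat measurement on the same RNA. For 10 of these genes 13 other probe sets read at or above 7.91 in Pfeiffer. Of the 13, 12 had a change above 0, and for 10 the siRNA arrays lay above every control. The genes were picked because they rose on these arrays, so this is no independent support. No share over all other probe sets was computed. The other probe sets of ASNS, FARSB, TARS1 and YARS1 read below 7.91 in Pfeiffer and were not counted. Of the 22 genes, 8 had 1 probe set and allow no such comparison. ALDH18A1, which fell, had another probe set that went from a mean of 11.75 to 11.48, again with no overlap of the arrays.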
